A study of Mus musculus with 42 samples.

Results

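Topical IL-22-Fc was compared with a control antibody in wounds of diabetic mice on day 7, with 5 arrays from IL-22-Fc wounds and 5 from control wounds among the 42 arrays of the series. The members are the arrays whose treatment label reads IL-22.Fc 7d or Anti-ragweed 7d, so no measured value chose them. All 10 come from female db/db mice, which lack a working leptin receptor and become obese and diabetic. The labels name C57BL/6 as the strain, while the methods name the BKS line that carries the db mutation, and give an age of 10 to 12 weeks. Each mouse had a splinted wound of 6 mm through the full thickness of the skin. The wound received the protein on days 0, 2, 4 and 6, and the skin in a circle of 2 mm around the wound was taken on day 7. IL-22-Fc is the cytokine IL-22 fused to an antibody Fc part, which lengthens its life in the body. Its dose is 20 µg in the design text and 50 µg in the treatment protocol. The control is an anti-ragweed antibody (50 µg) in the labels and a control Fc protein in the methods. Other groups are used for comparison. On day 7 these are db/db wounds given VEGF (20 µg, 5 arrays) or PDGF (50 µg, 3 arrays) on the same days, and at 24 h they are db/db wounds given 1 dose of IL-22-Fc (5 arrays) or of the anti-ragweed control (4 arrays). The db/db wounds of 24 h given VEGF or PDGF (5 arrays each) enter only the spread of the fits. Untreated skin of day 0 (5 arrays) has no genotype in its labels.

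IL-22 is made by lymphocytes and acts on epithelial cells, since its receptor chain IL-22R1 is found on keratinocytes and other epithelia and is absent from blood cells. IL-22R1 pairs with IL-10R2, and the pair activates the transcription factor STAT3. In the epidermis IL-22 is known for raising antimicrobial peptides, for thickening the tissue and for holding back terminal differentiation, the program by which keratinocytes fill with keratin and build the cornified envelope, a cross-linked protein shell under the membrane.

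Levels are given as log2 of the RMA intensity of each probe set, with arrays in the order of replicates 1 to 5, and a fold change is the IL-22-Fc mean minus the control mean on that scale. Of 20672 probe sets, IL-22-Fc raised 309 (1.49%) and lowered 166 (0.803%) by 1.5-fold or more with an adjusted p under 0.05 in limma with Benjamini-Hochberg adjustment. At an adjusted p under 0.05 alone, which is used for the counts within gene lists below, 2.81% were higher and 2.64% lower, and the median change over all probe sets was -0.003. The groups did not overlap in 277 of the 309 and in 134 of the 166, against 6.72% of all probe sets. The first principal component of the 10 arrays held 39.0% of the variance and put the IL-22-Fc arrays at 14.5 to 25.7 and the control arrays at -29.5 to -12.6 (exact permutation p = 0.00794, the smallest that 5 against 5 allows). The 5′ Gapdh control probe set was at 12.96 to 13.26 with IL-22-Fc and 12.82 to 12.99 in the control (exact permutation p = 0.0159). The 5′ Actb probe set was at 12.82 to 13.51 with IL-22-Fc and 12.99 to 13.43 in the control (exact permutation p = 0.5). These levels depend on RNA integrity and on the expression of the gene itself. No ratio to the 3′ end was taken, so the 2 cannot be told apart here. VEGF replicate 1 stood apart from the other VEGF arrays, with Il1b at 11.63 against 6.49 to 8.61, and it enters the pooled spread of the fit. The 3 PDGF arrays had a 5′ Gapdh level of 11.26 to 11.60, below all 15 other day 7 arrays. The labels do not say how the replicates were obtained, so the p-values take in no more than the variation from array to array.

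The promoters of 4 cornified envelope genes are shown because the Sprr2 genes rose and Lor fell with IL-22-Fc. Promoters are the 250 bases before the transcript start in RefSeq (GRCm38.p6), matched by symbol. The stretches printed are chr3:92338935-92339044, plus strand for Sprr2d, chr3:92364982-92365091, plus strand for Sprr2f, chr3:92407786-92407895, plus strand for Sprr2i and chr3:92083143-92083252, minus strand for Lor, all 5′ to 3′ on the strand of the gene, with capitals for TGANTCA, the motif known for AP-1, and ATTTGCAT, the octamer motif ATGCAAAT read on the other strand.
Sprr2d: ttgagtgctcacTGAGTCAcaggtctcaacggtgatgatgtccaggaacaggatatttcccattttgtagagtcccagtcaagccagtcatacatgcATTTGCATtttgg
Sprr2f: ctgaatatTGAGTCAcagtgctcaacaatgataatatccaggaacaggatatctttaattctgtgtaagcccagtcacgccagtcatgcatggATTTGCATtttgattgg
Sprr2i: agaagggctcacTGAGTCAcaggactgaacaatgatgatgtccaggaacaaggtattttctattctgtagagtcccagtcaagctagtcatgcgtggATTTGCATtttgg
Lor: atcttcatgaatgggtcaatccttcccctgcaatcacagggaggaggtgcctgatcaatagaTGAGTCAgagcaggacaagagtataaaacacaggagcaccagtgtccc

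Both motifs were chosen after the sequences had been seen, and a match is a description of the letters. The 3 Sprr2 stretches share both motifs at nearly the same places, TGANTCA 193 to 197 bases and the octamer 108 to 112 bases before the start. All 5 Sprr2 genes with a promoter in the table held both motifs, and none of the 10 Lce1 and 4 Lce3 genes held either. Lor, loricrin, held TGANTCA at -48 from its start, Ivl at -116 and Flg at -103, and these 3 genes fell. Over all 14221 genes with a promoter, 6.67% held TGANTCA and 1.57% the octamer on either strand. The shares were 10.8% and 4.74% among the 232 genes called higher with a promoter and 9.57% and 4.35% among the 115 called lower. The Sprr2 genes are 5 of the 25 promoters with TGANTCA and 5 of the 11 with the octamer among genes called higher. Lor, Ivl and Flg are 3 of the 11 with TGANTCA among genes called lower. These shares thus include the genes whose sequences led to the motifs, and they are no test.

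The motif TTCNNNGAA, which STAT factors bind and which reads the same on both strands, stood in 5.17% of the promoters of genes called higher, 6.96% of those called lower and 7.43% of all. The promoter of Socs3, the feedback inhibitor of STAT3 signalling, holds it 154 bases before the start (chr11:117969487-117969546, minus strand, motif in capitals).
Socs3: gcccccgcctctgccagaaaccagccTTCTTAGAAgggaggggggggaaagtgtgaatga

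No gene of the IL-22 receptor passed the test, while Stat3 and 4 other genes of STAT3 signalling rose. None of the 9 measured members of the cytokine subfamily and its receptors passed in limma, and 4 had an unadjusted p under 0.05, 3 higher and 1 lower. Il22ra1, the chain that binds IL-22, was at 6.44, 6.42, 6.23, 6.29 and 6.17 with IL-22-Fc, against 6.15, 6.04, 6.00, 6.29 and 5.65 in control wounds (log2 fold change 0.28, adjusted p = 0.177). Il10rb, its partner chain, differed by 0.14 and Il22ra2, a soluble receptor that traps IL-22, by 0.43 (adjusted p = 0.539 and 0.137). Stat3 itself was at 10.40 to 10.56 in IL-22-Fc wounds, against 9.87 to 10.04 in the control. These groups did not overlap, and the change was 0.49 (SE 0.10, adjusted p = 0.00398). Of 28 genes of STAT3 signalling and feedback, 5 rose and 0 fell, beside 2.81% higher and 2.64% lower among all probe sets, with a median change of 0.18. Among them, Osmr, the oncostatin M receptor, rose by 0.80, Bcl3, a partner of NF-kappaB p50, by 0.67, Socs1, a feedback inhibitor, by 0.66 and Junb, an AP-1 subunit, by 0.83 (adjusted p = 0.0105, 0.00715, 0.0104 and 0.0353 from limma). The call of Socs1 was lost with all 42 arrays in the fit (adjusted p = 0.142). The call of Junb was lost in 10 of 20 alternatives, with an adjusted p of up to 0.0938, among them leaving out any of control replicates 1 to 4 or IL-22-Fc replicates 1 to 3.

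Socs3 was at 10.50, 10.47, 10.24, 9.92 and 10.21 with IL-22-Fc, against 9.55, 9.15, 9.46, 9.02 and 8.99 in the control, and the groups did not overlap. Its change of 1.03 (SE 0.37) had an adjusted p of 0.116 with all 18 day 7 arrays in the fit. VEGF replicate 1, at 11.46 against 8.49 to 9.27 in the other VEGF arrays, widened the spread. Without that array the adjusted p of Socs3 was 0.000214, and with the 10 IL-22-Fc and control arrays alone 0.000274. The same held for Il1a, which codes for interleukin-1 alpha, at 0.000463 and 0.000457, against 0.112 with all 18 arrays.

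Antimicrobial genes rose, led by a beta-defensin and lactoperoxidase. Of 28 antimicrobial peptides and proteins, 9 were higher and 0 lower. The median over the list was 0.09, as most members did not pass. Defb3, an inducible beta-defensin, was at 11.03, 11.07, 10.75, 11.26 and 11.11 with IL-22-Fc, against 5.61, 6.56, 6.74, 8.23 and 4.87 in the control. The IL-22-Fc arrays lay close together, while the control arrays spread from 4.87 to 8.23. The change was 24.9-fold (log2 fold change 4.64, SE 0.67, adjusted p = 0.000151). Defb4, another inducible beta-defensin, had the wider spread in treated wounds, at 7.18, 6.93, 5.29, 4.71 and 5.95 with IL-22-Fc, against 3.65, 4.21, 3.75, 4.54 and 3.10 in the control (log2 fold change 2.16, SE 0.38, adjusted p = 0.00102). Its highest control array, 4.54, was close under its lowest IL-22-Fc array, 4.71. The Defb4 control arrays at 3.65, 3.75 and 3.10 lay within the background range given below, 2.32 to 3.78, so its fold change is not exact.

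Lpo, lactoperoxidase, which makes an antibacterial oxidant in secretions, was at 7.09, 7.79, 8.28, 7.58 and 7.75 with IL-22-Fc, against 4.23, 4.01, 4.55, 4.06 and 3.88 in the control (SE of the change 0.16, adjusted p = 2.24e-11), so its lowest IL-22-Fc array stood more than 2 log2 units above its highest control array. Wfdc12, a whey acidic protein type inhibitor with antibacterial activity, was at 11.06, 11.38, 11.43, 11.60 and 11.14 with IL-22-Fc, against 9.03, 9.19, 8.86, 8.82 and 8.59 in the control (log2 fold change 2.42, SE 0.19). Lcn2, lipocalin 2, which withholds iron from bacteria, was at 11.30, 11.29, 11.20, 10.85 and 11.46 with IL-22-Fc, against 9.75, 9.76, 9.45, 9.81 and 8.00 in the control. Control replicate 5 was the lowest for Lcn2 by more than 1 unit, and the groups did not overlap (log2 fold change 1.86, adjusted p = 0.00102). The calprotectin subunits S100a8 and S100a9 were at 14.18 to 14.36 and 14.34 to 14.45 with IL-22-Fc, against 12.97 to 13.69 and 12.29 to 13.39 in the control. These levels are close to the highest value in the data, 14.52, and whether the probe sets were saturated was not tested. The changes were 0.80 and 1.32 (adjusted p = 0.0285 and 0.0107), and the S100a8 call was lost in 8 of 20 alternatives, with an adjusted p of up to 0.0884, among them leaving out control replicate 5 or any of the IL-22-Fc arrays. Defb1, the constitutive beta-defensin, rose by 1.00 with an SE of 0.11.

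Some antimicrobial genes known as targets of IL-22 elsewhere did not pass. Reg3g, a lectin that IL-22 raises in the gut, was at 8.52, 8.04, 6.22, 7.07 and 7.17 with IL-22-Fc, against 7.34, 6.72, 7.59, 6.75 and 6.53 in the control, with overlapping groups (adjusted p = 0.635). Slpi, the secretory leukocyte protease inhibitor, was at 11.18, 11.17, 10.96, 10.93 and 10.52 with IL-22-Fc, against 10.29, 10.47, 10.24, 9.89 and 9.78 in the control. Its groups did not overlap, and its adjusted p was 0.21 with all day 7 arrays and 0.00384 with the 10 arrays alone.

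Saa1 and 3 other acute-phase genes rose, and Saa3 did not pass. Saa1, serum amyloid A1, was at 7.46, 8.98, 8.96, 8.40 and 9.10 with IL-22-Fc, against 4.90, 4.38, 4.01, 4.94 and 3.97 in the control, 17.6-fold higher (log2 fold change 4.14, SE 0.36, adjusted p = 2.78e-07). Saa3, the form made by macrophages and fat, was high in both, at 11.30, 11.97, 10.64, 11.47 and 12.42 with IL-22-Fc, against 11.54, 10.54, 11.14, 11.38 and 11.53 in the control, and the groups overlapped (adjusted p = 0.638). Saa2 rose to 4.71, 5.61, 4.47, 4.43 and 4.63 with IL-22-Fc, against 3.80, 3.24, 3.65, 3.46 and 3.88 in the control, where its level was at or near the range of 3 Y-linked probe sets in these female arrays, 2.32 to 3.78, a measure of background. No fold change is given for Saa2 for that reason. Orm1, the plasma carrier orosomucoid, rose by 0.74 (adjusted p = 0.0155, and 0.0508 without control replicate 5). Fetub, fetuin B, had 1 array apart, at 9.37, 10.33, 10.38, 10.54 and 10.33 with IL-22-Fc, against 7.30, 7.30, 7.39, 7.12 and 6.76 in the control. IL-22-Fc replicate 1 was the lowest there and still above all control arrays. Over the 28 acute-phase and complement genes, 4 rose and 0 fell.

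**Figure D1:**
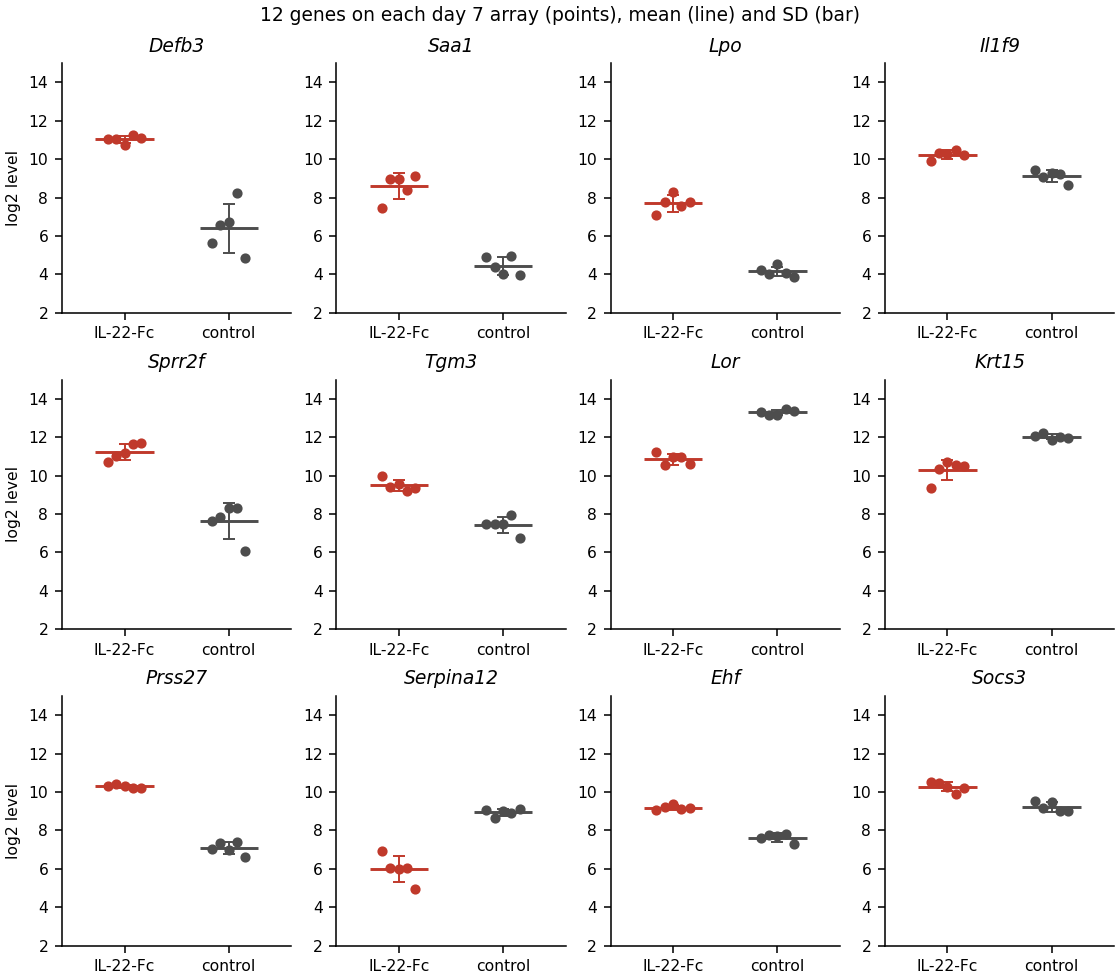
Log2 level (vertical axis, log2 of RMA intensity) of 12 genes on each of the 5 IL-22-Fc and 5 control arrays of day 7, with the mean as a line and the SD as a bar. Defb3 lies at 10.75 to 11.26 with IL-22-Fc and 4.87 to 8.23 in the control, Lor at 10.54 to 11.23 with IL-22-Fc and 13.17 to 13.48 in the control, and the groups do not overlap in any of the 12 genes.

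The IL-36 cytokines, epidermal members of the IL-1 family, rose and Il18 fell. Il1f9, which codes for IL-36 gamma, was at 9.88, 10.31, 10.27, 10.50 and 10.24 with IL-22-Fc, against 9.45, 9.09, 9.29, 9.22 and 8.64 in the control (log2 fold change 1.10, SE 0.22, adjusted p = 0.00342 from limma). Il1f6, IL-36 alpha, changed by 1.07 and Il1f8, IL-36 beta, by 0.74 (adjusted p = 0.0194 and 0.00553), and neither group overlapped its control. The call of Il1f6 was lost in 2 of 20 alternatives, with an adjusted p of up to 0.0546, 1 of them leaving out IL-22-Fc replicate 1 (0.0532), and that of Il1f8 only with all 42 arrays in the fit (adjusted p = 0.109). Il18, the interleukin-18 that resting keratinocytes store, fell to 9.11, 9.18, 9.05, 9.38 and 9.29 in IL-22-Fc wounds, against 10.17, 10.22, 9.98, 10.33 and 9.92 in the control (log2 fold change -0.93, SE 0.10, adjusted p = 2.81e-06). Il18rap, a chain of its receptor, was at 6.68, 6.56, 6.49, 6.64 and 6.56 with IL-22-Fc, against 6.03, 5.75, 5.80, 5.85 and 5.38 in the control, higher by 0.82 (adjusted p = 0.000171). Il1b, the interleukin-1 beta of myeloid cells, was scattered, at 10.67, 9.04, 7.98, 8.78 and 9.11 with IL-22-Fc and 8.27, 8.05, 8.61, 7.72 and 7.12 in the control (adjusted p = 0.365).

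Cxcr2, the neutrophil receptor for CXCL chemokines, was at 7.25, 7.53, 7.56, 7.13 and 7.33 with IL-22-Fc, against 6.25, 6.26, 5.71, 5.98 and 5.33 in the control (log2 fold change 1.45, SE 0.21, adjusted p = 0.000151). Its ligands Cxcl1 and Cxcl2 were at 7.45 to 9.23 and 8.36 to 11.88 with IL-22-Fc, and at 6.65 to 7.71 and 7.81 to 9.58 in the control, with overlap (adjusted p = 0.533 and 0.52). Ccl20, the ligand of CCR6, rose by 0.95 with no overlap (adjusted p = 9.03e-05). Among 26 neutrophil granule and surface genes, 5 rose and 2 fell. Those that rose were S100a8, S100a9 and Lcn2, which keratinocytes make too, and the stefins Stfa3 and Stfa2l1, inhibitors of cysteine proteases. Stfa2l1 was at 12.38, 12.60, 12.37, 12.30 and 12.46 with IL-22-Fc, against 11.31, 10.58, 11.26, 10.75 and 10.28 in the control. Those that fell code for granule proteins, Mpo, myeloperoxidase, at 4.75, 4.54, 4.68, 4.89 and 4.56 with IL-22-Fc, against 5.05, 5.05, 5.07, 5.13 and 5.44 in the control, and Ctsg, cathepsin G, lower by 1.42-fold (adjusted p = 0.0117 and 0.00677). Csf3r, the G-CSF receptor on the neutrophil surface, differed by 0.41 (adjusted p = 0.218). With all 42 arrays in the fit the calls of Mpo and Stfa3 were lost (adjusted p = 0.32 and 0.137). The mean level over the list was 7.45 to 7.82 with IL-22-Fc and 7.11 to 7.48 in the control across arrays. In bulk tissue fewer cells of a type and less RNA per cell cannot be told apart.

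Many cornified envelope genes changed, in both directions. They were held in 2 lists chosen with earlier results known, and the Lce3 genes were placed in the early one. Of 28 small proline-rich and early envelope genes, 14 rose and 2 fell (median 0.75). Of 27 late envelope and filaggrin genes, 2 rose and 13 fell (median -0.36). Each list has exceptions, as the early gene Ivl fell and the late list includes Tchh and Rptn, which rose. The Sprr2 genes, which code for small proline-rich cross-linkers, were among those with the largest changes. Sprr2i was at 12.18, 12.46, 12.44, 12.60 and 12.80 with IL-22-Fc, against 8.76, 8.48, 9.29, 9.28 and 8.01 in the control, Sprr2f at 10.71, 11.03, 11.19, 11.64 and 11.69 with IL-22-Fc, against 7.61, 7.84, 8.33, 8.32 and 6.07 in the control, and Sprr2d at 13.35, 13.60, 13.58, 13.61 and 13.77 with IL-22-Fc, against 11.60, 11.05, 11.95, 11.93 and 11.17 in the control. The changes were 3.73, 3.62 and 2.04 (adjusted p = 0.000697, 0.00108 and 0.00295 from limma), with no overlap in any of the 3. Close copies such as the Sprr2, Lce, Serpinb3 and stefin genes can share signal on a probe set, so single members are uncertain.

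Lce3a, a late cornified envelope gene of the group induced in injured skin, was at 11.13, 11.80, 11.82, 11.67 and 11.97 with IL-22-Fc, against 9.12, 8.85, 9.03, 9.19 and 7.54 in the control (log2 fold change 2.93). Control replicate 5 was the lowest for Lce3a, and the groups did not overlap. Tgm3, a transglutaminase that cross-links the envelope, was at 9.98, 9.40, 9.56, 9.21 and 9.33 with IL-22-Fc, against 7.47, 7.46, 7.50, 7.92 and 6.74 in the control (log2 fold change 2.08, SE 0.20, adjusted p = 6.18e-07). Psors1c2, a small proline-rich epidermal gene of the psoriasis susceptibility region, rose by 2.40, and Tchh, trichohyalin, a cross-linked protein of the inner root sheath, by 1.51 (adjusted p = 1.12e-07 and 0.000152, and 0.495 for Tchh with all 42 arrays).

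Lor, the most abundant protein of the mature envelope, fell to 11.23, 10.54, 10.96, 10.96 and 10.58 with IL-22-Fc, against 13.30, 13.18, 13.17, 13.48 and 13.37 in the control, 5.44-fold lower (log2 fold change -2.44, SE 0.12, adjusted p = 4.47e-11). Flg, filaggrin, which bundles keratin and later yields the natural moisturizing factor, was at 9.60, 9.65, 9.59, 10.11 and 9.70 with IL-22-Fc, against 11.74, 10.94, 11.47, 11.51 and 11.39 in the control, and the early envelope gene Ivl, involucrin, at 5.39, 5.34, 5.74, 5.35 and 5.94 with IL-22-Fc, against 7.69, 7.69, 7.82, 7.96 and 7.78 in the control. The changes of Flg and Ivl were -1.68 and -2.24 (adjusted p = 6.95e-06 and 2.21e-06). Among the Lce1 genes of healthy skin, Lce1m was at 4.97, 5.61, 5.47, 5.42 and 5.49 with IL-22-Fc, against 9.03, 9.00, 9.17, 9.47 and 9.49 in the control, and Lce1l was lower by 2.21-fold. Of the 4 Lce3 genes measured all rose, and of the Lce1 genes 9 fell, so these neighbours in 1 gene cluster moved in opposite directions. Mt4, a metallothionein of stratified epithelia, was at 5.35, 4.86, 6.72, 6.71 and 5.34 with IL-22-Fc, against 10.09, 10.58, 9.38, 10.78 and 9.98 in the control (log2 fold change -4.36, SE 0.38, adjusted p = 2.44e-07), and Dapl1, a marker of early differentiation, at 7.15, 8.63, 8.56, 8.10 and 8.00 with IL-22-Fc, against 10.21, 10.44, 10.10, 10.24 and 10.33 in the control (log2 fold change -2.18, SE 0.23, adjusted p = 2.64e-06).

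**Figure D2:**
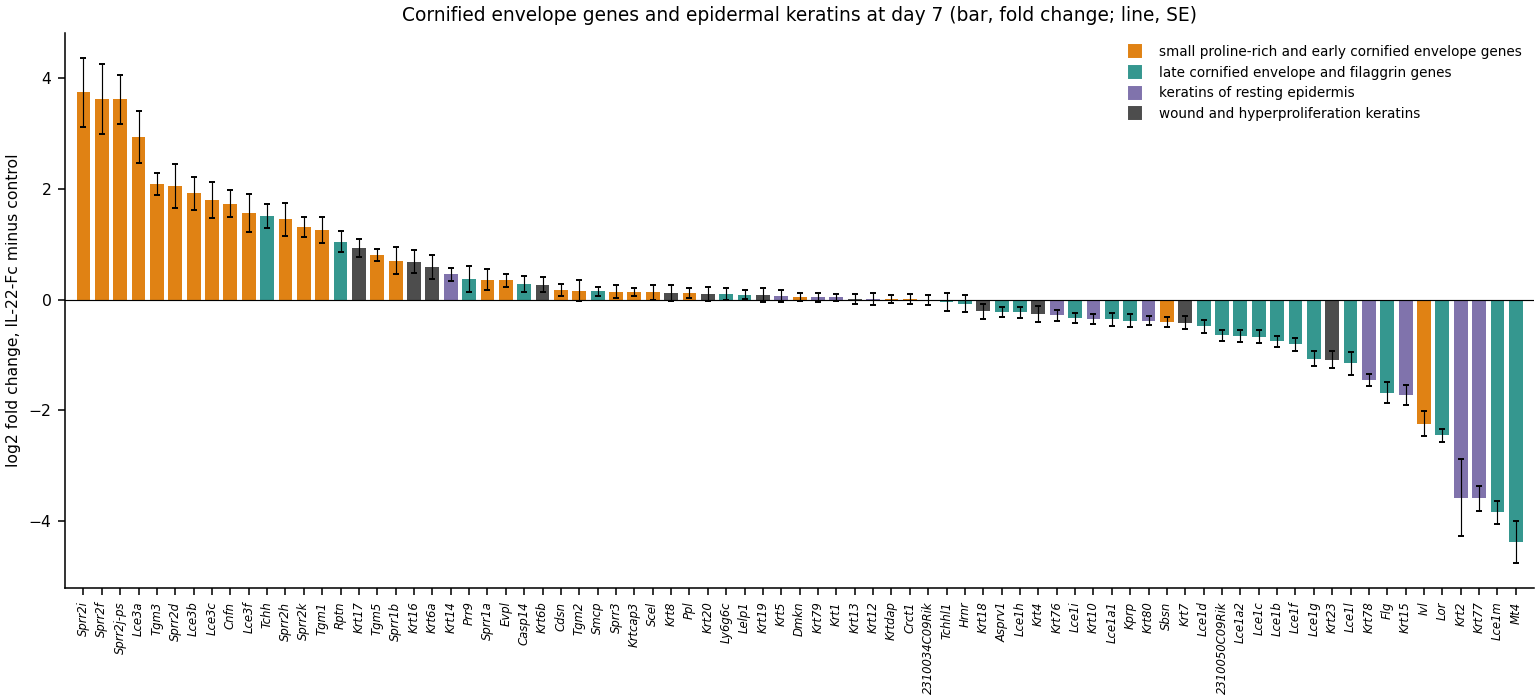
Log2 fold change (vertical axis, IL-22-Fc minus control at day 7; lines, SE) of every measured cornified envelope gene and epidermal keratin, ordered by size and coloured by list. The Sprr2 and Lce3 genes stand at the high end with Sprr2i at 3.73, and Mt4 (-4.36), Lce1m (-3.84), Krt77 (-3.59) and Lor (-2.44) at the low end.

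Krt77, Krt15 and Krt2 fell, while the main keratins of the epidermis changed less or did not pass. Of 12 such keratins 6 were lower and 1 higher. Krt77, a keratin of the suprabasal layers and sweat ducts, was at 8.05, 8.87, 9.77, 8.66 and 8.67 with IL-22-Fc, against 12.22, 12.40, 12.51, 12.35 and 12.46 in the control (log2 fold change -3.59, SE 0.23, adjusted p = 2.79e-09). Krt15, a keratin of resting basal cells and the hair follicle bulge, was at 9.35, 10.35, 10.69, 10.56 and 10.52 with IL-22-Fc, against 12.05, 12.20, 11.84, 12.02 and 11.97 in the control, with IL-22-Fc replicate 1 lowest (log2 fold change -1.72, SE 0.18, adjusted p = 3.96e-06), and Krt78 fell by 2.74-fold. Krt2, of the upper layers, was at 3.03, 3.65, 3.58, 3.78 and 3.54 with IL-22-Fc, within the background range given above, and at 4.59, 8.25, 6.67, 7.23 and 8.71 in the control. The control arrays spread widely for Krt2, and no fold change is given (adjusted p = 0.00283). The abundant suprabasal pair changed less, Krt10 by -0.35 and Krt1 by 0.04 (adjusted p = 0.0255 and 0.821). Their group means, 13.55 to 13.9, are close to the highest value in the data, 14.52. Whether these probe sets were saturated was not tested. The Krt10 call was lost in 5 of 20 alternatives, with an adjusted p of up to 0.0768, without control replicate 1 or 4 or IL-22-Fc replicate 1, 2 or 5. The basal keratin Krt5 was at 13.02 to 13.21 with IL-22-Fc and 12.90 to 13.22 in the control. The probe set of its partner Krt14 read far lower, with means of 6.58 with IL-22-Fc and 6.13 in the control. How well it measures the Krt14 transcript was not tested. Krt14 rose there by 0.46 (adjusted p = 0.0272). That call was lost in 6 of 20 alternatives, with an adjusted p of up to 0.0824, with all 42 arrays or without control replicate 2, 4 or 5 or IL-22-Fc replicate 3 or 4.

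The wound keratins, which keratinocytes at a wound edge switch on, were already high. Krt16 and Krt6a were close to the highest value in the data, 14.52, and whether their probe sets were saturated was not tested. Krt16 was at 14.25, 14.20, 14.17, 14.19 and 14.17 with IL-22-Fc, against 13.65, 13.63, 13.61, 13.45 and 13.23 in the control, and Krt6a at 13.81, 13.55, 13.50, 13.61 and 13.44 with IL-22-Fc, against 13.13, 13.17, 13.10, 12.78 and 12.79 in the control. Neither overlapped, and the changes of 0.68 and 0.59 had adjusted p of 0.0663 and 0.121 with all 18 day 7 arrays, 0.0479 and 0.0939 without VEGF replicate 1, and 0.000274 and 0.00341 with the 10 arrays alone. Krt17, of the same program, passed in all of these, at 12.68, 12.98, 12.82, 12.64 and 12.56 with IL-22-Fc, against 11.71, 11.98, 11.91, 11.72 and 11.70 in the control (log2 fold change 0.93). Krt23 went the other way, lower by 2.12-fold (adjusted p = 9.81e-05). Sprr1b, an envelope precursor of wounded skin, behaved like Krt16, at 13.40, 13.02, 12.85, 13.16 and 12.94 with IL-22-Fc, against 12.69, 12.42, 12.61, 12.05 and 12.10 in the control (adjusted p = 0.107, and 0.0456 without VEGF replicate 1).

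Some epidermal proteases rose, and so did several protease inhibitors. Of 9 kallikreins, the serine proteases that free dead cells from the surface, 7 were higher and 0 lower, with a median change of 0.77. Klk9 was at 10.16, 10.29, 10.31, 10.50 and 10.18 with IL-22-Fc, against 8.66, 8.71, 8.89, 8.71 and 8.54 in the control, and Klk6 at 12.91 to 13.14 with IL-22-Fc, against 11.66 to 12.14 in the control, both without overlap (log2 fold change 1.58, SE 0.15, adjusted p = 1.16e-06 and log2 fold change 1.07, SE 0.14, adjusted p = 3.52e-05). Klk5, which starts the kallikrein cascade, differed by 0.28 (adjusted p = 0.103). Of 24 other epidermal proteases 5 were higher, among them Prss27, Tmprss11a, Tmprss11g and Prss22, and 1 lower, Tmprss11f, with a median of 0.12. Prss27, a membrane-anchored serine protease of stratified epithelia, was at 10.33, 10.40, 10.32, 10.20 and 10.20 with IL-22-Fc, against 7.03, 7.35, 6.99, 7.39 and 6.62 in the control. Its IL-22-Fc arrays lay close together, at 9.3-fold the control (log2 fold change 3.22, SE 0.32, adjusted p = 1.25e-06). Tmprss11a, an epithelial transmembrane protease, was at 6.42, 5.32, 4.76, 5.14 and 5.54 with IL-22-Fc, against 2.87, 3.44, 3.42, 3.59 and 3.10 in the control, which is near background. The related Tmprss11g rose by 1.83 and the serine protease Prss22 by 1.46.

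Among 29 Spink, Wfdc, cystatin and stefin inhibitors, 9 rose and 1 fell. Spink12, a Kazal-type inhibitor, was at 9.37, 9.38, 9.50, 9.32 and 9.45 with IL-22-Fc, against 6.63, 6.86, 6.29, 6.88 and 5.18 in the control. The IL-22-Fc arrays were again narrow and the control arrays broad, with replicate 5 lowest (log2 fold change 3.04, SE 0.34, adjusted p = 5.71e-06). Of 26 serpins 4 rose and 2 fell. Serpinb3a, of the squamous cell carcinoma antigen family, was at 9.60, 9.54, 9.45, 8.94 and 9.86 with IL-22-Fc, against 6.05, 5.98, 6.30, 6.99 and 5.25 in the control (log2 fold change 3.37, SE 0.23, adjusted p = 5.87e-09), while Serpina9 and Serpinb11 rose by 2.10 and 1.12. Serpina12, known as the adipokine vaspin and also made in the epidermis, where it inhibits KLK7, was 1 of the 2 that fell, at 6.91, 6.05, 6.00, 6.02 and 4.96 with IL-22-Fc, against 9.04, 8.63, 9.01, 8.93 and 9.12 in the control (log2 fold change -2.96, SE 0.23, adjusted p = 3.45e-08).

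Lipid genes of the barrier moved both ways, gene by gene. Alox8, a lipoxygenase that acts on arachidonic acid at carbon 8, had the largest change among the genes named here, at 11.04, 11.15, 11.16, 10.89 and 11.11 with IL-22-Fc, against 4.20, 4.24, 4.44, 6.21 and 3.63 in the control. The 5 IL-22-Fc arrays were nearly level, and control replicate 4 was the highest of its group (92.2-fold, log2 fold change 6.53, SE 0.35, adjusted p = 1.79e-10). Control replicate 5, at 3.63, lay within the background range given above, so this fold change is not exact. Of 17 genes of the lipoxygenase and hepoxilin pathway, 4 rose and 4 fell. Alox12b, whose loss causes ichthyosis in humans, rose to 8.66, 8.17, 8.12, 7.90 and 8.22 with IL-22-Fc, against 7.39, 7.55, 7.28, 7.83 and 6.96 in the control (log2 fold change 0.81, SE 0.18, adjusted p = 0.00907), while Alox12e, the epidermal 12-lipoxygenase of the mouse, fell to 6.62, 6.64, 6.70, 6.08 and 6.62 with IL-22-Fc, against 7.32, 7.04, 7.71, 7.70 and 7.93 in the control (log2 fold change -1.01, SE 0.20, adjusted p = 0.00366). Ptges, the prostaglandin E synthase, rose by 0.92 (adjusted p = 0.00904), and Ptgs2, which codes for cyclooxygenase 2, was at 7.03, 6.30, 5.53, 4.98 and 5.67 with IL-22-Fc and 5.26, 4.47, 5.21, 4.03 and 5.27 in the control, with overlap (adjusted p = 0.375).

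Of 19 phospholipase A2 genes, which release fatty acids from membranes, 2 rose. These were Pla2g4d, at 6.45, 6.26, 6.40, 6.40 and 5.87 with IL-22-Fc, against 4.02, 4.18, 4.00, 3.87 and 3.30 in the control (log2 fold change 2.40, SE 0.18, adjusted p = 1.8e-08), and its neighbour in the genome Pla2g4e, higher by 1.53. In ceramide and very long chain lipid synthesis 5 of 29 rose and 3 fell. Degs2, which makes phytoceramides, was at 9.44, 9.44, 9.21, 9.58 and 9.34 with IL-22-Fc, against 8.51, 8.33, 8.52, 8.53 and 8.14 in the control (adjusted p = 0.00453), and the ceramide synthase Cers3 rose by 0.65 (adjusted p = 0.0291). The Cers3 call was lost in 6 of 20 alternatives, with an adjusted p of up to 0.0884, among them without control replicate 3 or 5 or IL-22-Fc replicate 1, 2 or 5. Sterol and fatty acid synthesis had 2 of 33 higher and 2 lower. In retinoid metabolism (4 higher and 3 lower of 31), Lrat, which esterifies retinol for storage, rose by 1.11, the binding protein Rbp2 by 1.08 and the dehydrogenase Rdh16 by 1.39, while Aldh1a3, which makes retinoic acid, was at 7.03, 7.89, 8.09, 8.14 and 8.35 with IL-22-Fc, against 8.96, 9.10, 8.91, 8.83 and 9.06 in the control (log2 fold change -1.07, SE 0.18, adjusted p = 0.00087).

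Transcription factors of the epidermis rose or did not pass, and none of 36 fell (9 higher), beside 2.64% lower and 2.81% higher among all probe sets. Ehf, an ETS factor of epithelia, was at 9.07, 9.24, 9.39, 9.09 and 9.17 with IL-22-Fc, against 7.61, 7.75, 7.70, 7.82 and 7.27 in the control (log2 fold change 1.56, SE 0.12, adjusted p = 4.08e-08). Id1, an inhibitor of helix-loop-helix factors, was at 9.83, 9.67, 9.66, 9.48 and 9.41 with IL-22-Fc, against 8.71, 8.42, 8.64, 8.41 and 8.28 in the control (log2 fold change 1.12, SE 0.17, adjusted p = 0.000203). Grhl3, needed for barrier formation and wound closure in mouse embryos, rose by 0.95, the ETS factor Elf5 by 0.89, Tfap2c, an AP-2 factor, by 0.74 and Ovol1, a repressor of epidermal progenitor genes, by 0.62 (adjusted p = 0.00385, 0.000825, 0.00662 and 0.00232). Klf4, which directs barrier formation, and Trp63, which codes for p63 of the basal layer, were at 11.29 to 11.55 and 6.46 to 6.77 with IL-22-Fc and at 10.91 to 11.57 and 5.72 to 6.53 in the control (adjusted p = 0.75 and 0.137).

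The EGF receptor ligands also moved apart. Epgn, epigen, was at 10.16, 9.31, 9.40, 8.58 and 8.61 with IL-22-Fc, against 7.84, 7.47, 7.96, 6.69 and 6.84 in the control, without overlap (log2 fold change 1.85, SE 0.49, adjusted p = 0.0279). That call was lost in 6 of 20 alternatives, with an adjusted p of up to 0.0828, 5 of them leaving out 1 array, control replicate 4 or 5 or IL-22-Fc replicate 1, 2 or 3. Tgfa, which codes for TGF-alpha, was tighter, at 8.90, 8.72, 8.76, 8.73 and 8.57 with IL-22-Fc, against 7.97, 7.79, 8.11, 7.80 and 7.64 in the control (log2 fold change 0.88, adjusted p = 0.0147). Btc, betacellulin, fell to 5.23, 5.90, 5.82, 5.36 and 6.15 with IL-22-Fc, against 7.06, 6.72, 6.76, 6.70 and 7.04 in the control (log2 fold change -1.16, SE 0.17, adjusted p = 0.000151). Hbegf, the heparin-binding ligand of wound edges, was at 9.39, 8.69, 8.41, 8.56 and 8.45 with IL-22-Fc, against 7.87, 7.15, 8.25, 7.16 and 7.54 in the control, with an adjusted p of 0.0562 that became 0.00368 without VEGF replicate 1. Over the 19 receptors and ligands 3 were higher and 3 lower.

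Of 34 epithelial junction genes 5 rose and 3 fell. Gjb2, connexin 26, was at 12.90, 12.97, 12.94, 13.04 and 13.07 with IL-22-Fc, against 12.42, 12.01, 12.52, 11.86 and 11.93 in the control (adjusted p = 0.107, and 0.0428 without VEGF replicate 1). Gjb6, connexin 30, rose by 1.17 (adjusted p = 0.0352), a call lost in 11 of 20 alternatives, with an adjusted p of up to 0.147, among them without control replicate 2, 4 or 5 or any of IL-22-Fc replicates 2 to 5. Cgn, cingulin, was at 5.75, 6.12, 6.07, 5.68 and 6.22 with IL-22-Fc, against 6.74, 7.18, 6.59, 7.28 and 6.82 in the control (log2 fold change -0.95, SE 0.13, adjusted p = 7.96e-05). Gsdma, a gasdermin of the upper epidermis and follicle, which forms membrane pores once cut, was at 9.04, 8.96, 9.08, 8.96 and 8.98 with IL-22-Fc, against 7.87, 8.00, 7.82, 8.40 and 7.38 in the control (log2 fold change 1.11, SE 0.12, adjusted p = 6.47e-06), and Lypd5, a membrane-anchored Ly6 protein, rose by 1.12.

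Membrane transporters were a group noticed in the data. In a list of 35 made after the values had been seen, and thus without a test as a list, 10 rose and 4 fell. Slc26a4, the anion exchanger pendrin, was at 6.26, 5.72, 6.48, 7.13 and 7.10 with IL-22-Fc, against 4.03, 4.28, 3.96, 3.72 and 3.67 in the control (log2 fold change 2.60, SE 0.26, adjusted p = 1.25e-06). Slc5a8, a sodium-coupled carrier of lactate and short-chain fatty acids, was at 9.20, 9.12, 9.29, 9.01 and 8.94 with IL-22-Fc, against 7.19, 7.17, 6.89, 7.35 and 6.18 in the control, and Slc5a1, the sodium-glucose carrier SGLT1, at 8.83, 8.91, 9.06, 8.63 and 9.01 with IL-22-Fc, against 6.93, 7.19, 6.78, 7.06 and 6.02 in the control (log2 fold change 2.16, SE 0.20, adjusted p = 6.18e-07 and log2 fold change 2.09, SE 0.19, adjusted p = 4.88e-07). Slc7a11, the cystine-glutamate exchanger, was at 7.69, 7.13, 7.51, 7.32 and 7.78 with IL-22-Fc, against 6.09, 5.87, 5.88, 4.94 and 4.55 in the control (log2 fold change 2.02, SE 0.45, adjusted p = 0.00853). Slc26a7, another anion carrier, fell to background, 2.96, 2.94, 3.28, 3.32 and 3.62 with IL-22-Fc, against 4.66, 4.73, 4.73, 4.82 and 4.74 in the control. Of the metabolic enzymes, Uox, urate oxidase, which in rodents turns urate into allantoin, was at 9.95, 9.99, 10.32, 10.08 and 10.55 with IL-22-Fc, against 6.24, 6.02, 7.31, 6.64 and 5.68 in the control (log2 fold change 3.80, SE 0.49, adjusted p = 3.48e-05), Cth, which makes cysteine, rose by 0.96, and Bbox1, the last enzyme of carnitine synthesis, fell to 4.99, 6.39, 6.49, 6.18 and 6.42 with IL-22-Fc, against 7.69, 7.56, 7.42, 8.13 and 7.48 in the control (log2 fold change -1.56, SE 0.24, adjusted p = 0.000296). Tesc, tescalcin, a calcium-binding partner of a sodium-proton exchanger, was at 5.54, 5.30, 5.61, 5.23 and 5.60 with IL-22-Fc, against 7.11, 7.41, 7.31, 7.41 and 7.34 in the control, lower by 3.63-fold with an SE of 0.10 on the log2 scale, and Paqr7, a membrane progestin receptor, fell by 3.19-fold.

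**Figure D3:**
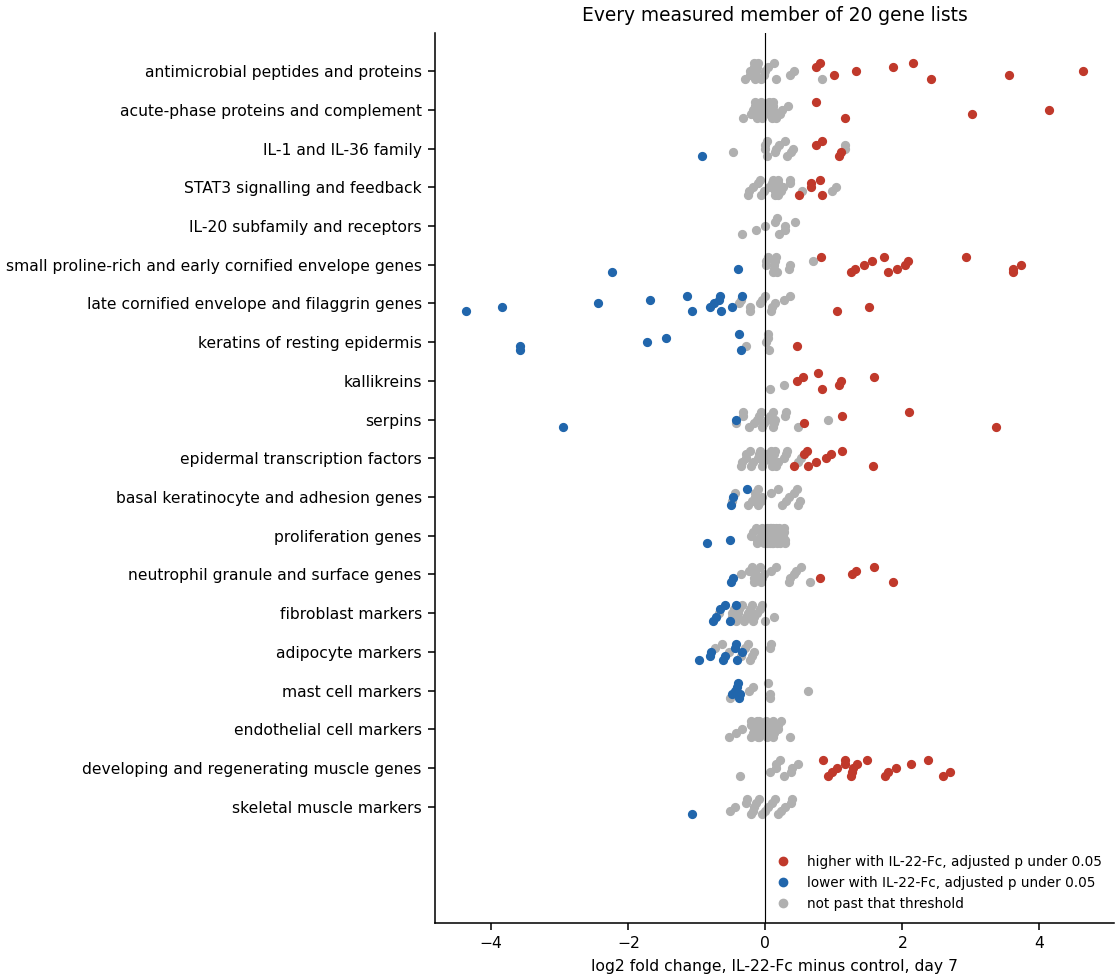
Log2 fold change (horizontal axis, IL-22-Fc minus control at day 7) of every measured member of 20 gene lists, 1 point per probe set, coloured where the adjusted p was under 0.05 (red, higher; blue, lower). Kallikreins (7 of 9 higher), early envelope genes (14 of 28) and developing muscle genes (18 of 27) lie to the right, and late envelope genes (13 of 27 lower) and adipocyte markers (9 of 20) to the left. The developing muscle list was made after these values had been seen.

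Most genes in a list of developing and regenerating skeletal muscle were higher around IL-22-Fc wounds. None of 20 adult muscle markers was called higher, which is near the 2.81% of all probe sets. The first list was made after the values had been seen, which partly fixed this contrast of the 2 lists, so it is a description. Mouse back skin carries a thin muscle sheet, the panniculus carnosus, which a full-thickness wound cuts. Of the 27 genes in the developing muscle list, 18 were higher and 0 lower, with a median change of 1.16 and no overlap in 18. Myh3, the embryonic myosin heavy chain, was at 10.69, 10.22, 10.38, 10.48 and 10.75 with IL-22-Fc, against 8.22, 8.14, 8.40, 8.42 and 8.72 in the control (log2 fold change 2.12, SE 0.12, adjusted p = 4.02e-10). Actc1, the cardiac actin that young muscle fibres also use, was at 10.34, 10.26, 10.58, 10.67 and 11.31 with IL-22-Fc, against 7.99, 7.73, 7.92, 7.68 and 8.41 in the control (log2 fold change 2.69, SE 0.17, adjusted p = 1.87e-09). Mymx, the small protein that fuses myoblasts, was at 7.35, 6.94, 6.48, 7.53 and 7.05 with IL-22-Fc, against 4.14, 4.36, 4.76, 3.71 and 5.44 in the control (log2 fold change 2.59, SE 0.26, adjusted p = 1.83e-06), and its partner Mymk at 7.64, 6.78, 6.58, 6.60 and 6.67 with IL-22-Fc, against 5.39, 5.56, 5.49, 5.45 and 6.06 in the control. The myogenic factors Myog and Myf5 rose, Myog by 1.04 (adjusted p = 0.000697) and Myf5 to 4.57, 4.29, 4.17, 4.26 and 3.95 with IL-22-Fc, against 2.94, 3.06, 3.04, 2.86 and 3.56 in the control, which is within the background range (adjusted p = 1.75e-06). Tnnt1, slow troponin T, rose by 1.91 and Bex1, an adaptor raised in regenerating muscle, by 1.80. With Tnnt1 in the list, whether it reflects young or slow fibres was not tested.

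Of 20 adult skeletal muscle markers 0 rose and 1 fell in limma (2 higher and 2 lower at an unadjusted p under 0.05). These counts are near the 2.81% higher and 2.64% lower among all probe sets. The mean level over the list was 9.91 to 10.62 with IL-22-Fc and 10.01 to 10.54 in the control. Acta1, the actin of adult fibres, was at 13.08, 12.52, 12.63, 12.57 and 12.66 with IL-22-Fc and 12.41, 12.65, 12.63, 12.77 and 12.81 in the control (adjusted p = 0.899), and Ckm, the muscle creatine kinase, differed by -0.19 (adjusted p = 0.667). Pvalb, parvalbumin of fast fibres, was the marker that fell, at 9.52, 8.77, 9.36, 8.41 and 9.28 with IL-22-Fc, against 9.50, 10.05, 10.11, 10.39 and 10.66 in the control, with slight overlap (log2 fold change -1.08, SE 0.24, adjusted p = 0.00878). At 24 h the developing muscle genes had a median change of -0.07 and 0 calls, and 16 of the 27 had a larger effect at day 7, against 0.759% of all probe sets. The list was made after the day 7 values had been seen, so the count of 16 is a description and no test beside that share. For 4 of the 27, Myh3, Mymx, Myf5 and Pax7, both means at 24 h were within the background range, where a change of low levels could not be seen. Myh3 was at 2.98 to 3.72 with IL-22-Fc and 2.96 to 3.64 in the control at 24 h, against 3.10 to 6.59 in untreated skin.

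Some of these muscle genes were also higher with the growth factors. VEGF and PDGF use the same day 7 control arrays as IL-22-Fc, so their values are given side by side. Against those controls 10 of the 27 in this list, made after the values had been seen, were higher with VEGF and 21 with PDGF, beside 5.96% and 18.9% of all probe sets, with medians of 0.29 and 1.24. Myh3 was at 9.49, 9.69, 9.46, 9.14 and 9.61 with VEGF and 10.13, 10.15 and 10.02 with PDGF, and Mymx at 5.30, 6.26, 5.71, 5.53 and 5.10 with VEGF and 7.63, 7.18 and 7.20 with PDGF. Set against VEGF directly, IL-22-Fc was higher by 1.02 for Myh3 and 1.49 for Mymx (adjusted p = 2.12e-06 and 0.000228), and 19 of the 27 passed upward, beside 12.1% of all probe sets. Set against PDGF, 2 were higher and 5 lower, beside 17% and 21.1% of all, with Myog among the lower at -1.04 (adjusted p = 0.000307), while Mymx differed by -0.27 (adjusted p = 0.541).

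**Figure D4:**
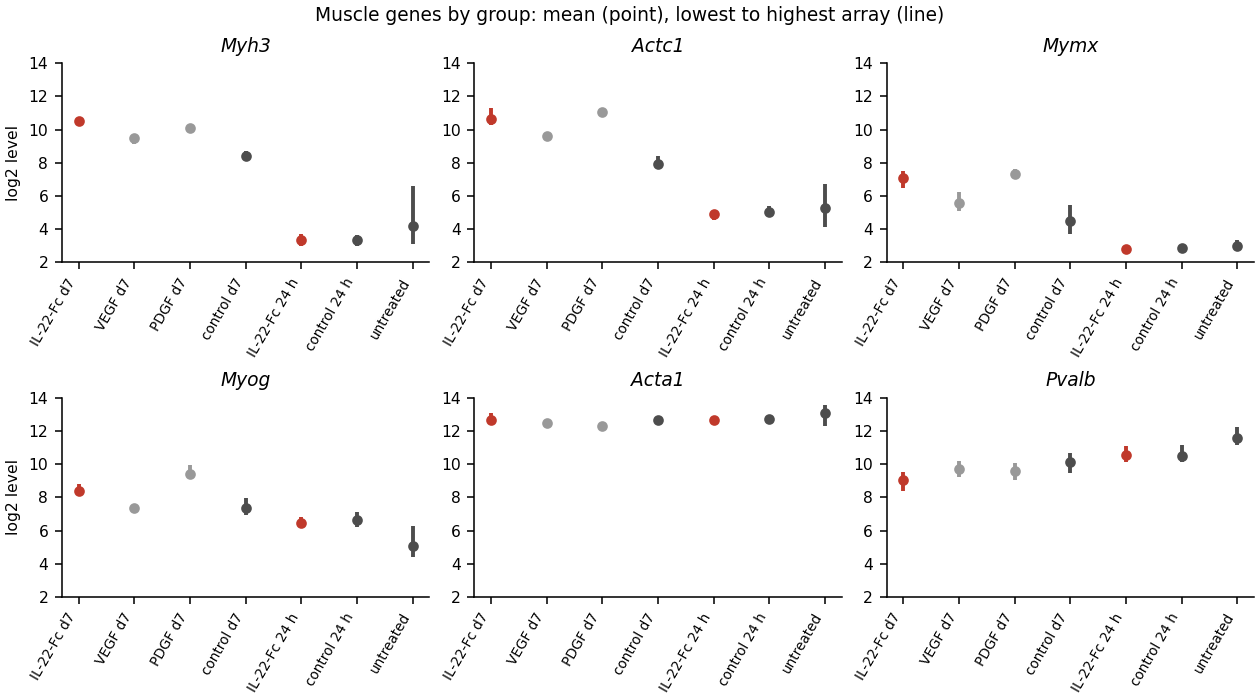
Log2 level of 6 muscle genes by group, with the mean as a point and a line from the lowest to the highest array (3 to 5 arrays per group). Myh3, Actc1, Mymx and Myog lie above their day 7 controls with IL-22-Fc (Myh3 10.22 to 10.75 with IL-22-Fc and 8.14 to 8.72 in the control), Acta1 overlaps between IL-22-Fc (12.52 to 13.08) and control (12.41 to 12.81), and Pvalb is lower with IL-22-Fc.

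Markers of fat, the dermis and mast cells were among the genes that fell. Of 20 adipocyte markers 9 fell and 0 rose (median -0.42, mean level 8.42 to 8.83 with IL-22-Fc and 8.93 to 9.19 in the control). Retn, the adipokine resistin, was at 7.10, 6.97, 7.59, 6.92 and 7.08 with IL-22-Fc, against 7.75, 8.16, 8.24, 8.37 and 7.97 in the control, and Lep, leptin, at 8.94, 9.27, 9.33, 9.24 and 9.03 with IL-22-Fc, against 9.73, 10.06, 9.96, 10.38 and 9.72 in the control (log2 fold change -0.96, SE 0.15, adjusted p = 0.000301 and log2 fold change -0.81, SE 0.15, adjusted p = 0.0026). The Lep call was lost with all 42 arrays (adjusted p = 0.44). Adipoq, adiponectin, differed by -0.63 and missed the threshold (adjusted p = 0.102, and 0.0195 with the 10 arrays alone). Of 27 fibroblast markers 6 fell, with a median of -0.38 and negative values in 26. Among them, the call of Clec3b, tetranectin, was lost in 12 of 20 alternatives, with an adjusted p of up to 0.131, which include leaving out control replicate 3, 4 or 5 or IL-22-Fc replicate 1, 2, 4 or 5. The call of Mfap4, a microfibril-associated protein, was lost in 9 of 20 alternatives, with an adjusted p of up to 0.165, which include leaving out control replicate 1, 4 or 5 or IL-22-Fc replicate 1, 2, 3 or 4. Fn1, fibronectin, was at 5.63, 5.85, 6.13, 6.34 and 6.28 with IL-22-Fc, against 6.52, 6.83, 6.79, 6.55 and 6.85 in the control (adjusted p = 0.0155, and 0.265 with all 42 arrays). The main collagens did not pass, Col1a1 at -0.31 and Col3a1 at -0.07 (adjusted p = 0.285 and 0.851).

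Of 13 mast cell markers 6 fell, among them the mast cell proteases Cma1, chymase, at 9.70, 9.81, 10.01, 9.75 and 9.61 with IL-22-Fc, against 10.24, 10.52, 10.25, 10.33 and 9.98 in the control, and Cpa3 at 10.16, 10.34, 10.37, 10.11 and 10.11 with IL-22-Fc, against 10.78, 10.72, 10.70, 10.71 and 10.39 in the control (log2 fold changes -0.49 and -0.44). Control replicate 5 was the lowest control array for both, and the Cpa3 call was lost with all 42 arrays in the fit (adjusted p = 0.116). Endothelial markers had no call in either direction among 31 in limma, near the 2.81% higher and 2.64% lower among all probe sets. Their median was -0.09, and 2 were higher and 4 lower at an unadjusted p under 0.05. Pecam1, CD31 of endothelial cells, was at 7.68, 7.40, 7.39, 7.52 and 7.39 with IL-22-Fc and 7.35, 7.48, 7.49, 7.38 and 7.77 in the control (adjusted p = 0.952). With VEGF, 26 of the 31 were higher against the same controls (5.96% of all probe sets), and IL-22-Fc was below VEGF in 27 (10.8% of all). Rgs5, a pericyte gene, differed from the control by -0.05 and from VEGF by -2.10 (adjusted p = 0.907 and 8.01e-09). Among 29 macrophage and monocyte markers 2 fell, Cx3cr1 and Retnla, and 0 rose. The call of Retnla, a resistin-like protein of alternatively activated macrophages, was lost in 16 of 20 alternatives, with an adjusted p of up to 0.138, among them leaving out control replicate 2, 3, 4 or 5 or IL-22-Fc replicate 2, 3, 4 or 5. Cx3cr1, the fractalkine receptor, was at 5.59, 5.65, 5.57, 5.75 and 5.62 with IL-22-Fc, against 6.46, 6.16, 6.28, 5.85 and 6.24 in the control (log2 fold change -0.56, SE 0.09, adjusted p = 0.000614).

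No proliferation gene was called higher on day 7, which is near the share of all probe sets. Of 47, 0 rose and 2 fell in limma, beside 2.81% higher and 2.64% lower among all probe sets. The median was 0.08, and 4 were higher and 2 lower at an unadjusted p under 0.05. Mki67, which codes for the proliferation marker Ki-67, was at 10.35, 10.33, 10.38, 10.52 and 10.40 with IL-22-Fc and 10.46, 10.76, 10.18, 10.48 and 10.15 in the control (log2 fold change -0.01, SE 0.10). The lower members were Ccnd2, cyclin D2, which drives cells out of rest (log2 fold change -0.51, SE 0.08, adjusted p = 0.000617), and Cdkn2a. Cdkn2a, which codes for the cell cycle inhibitors p16 and p19ARF, was at 3.78, 3.64, 3.80, 4.07 and 3.93 with IL-22-Fc, against 4.68, 3.99, 4.75, 4.57 and 5.47 in the control (log2 fold change -0.85, SE 0.22, adjusted p = 0.0234), a call lost in 4 of 20 alternatives, with an adjusted p of up to 0.0666, each without 1 of control replicates 3 and 5 and IL-22-Fc replicates 1 and 2. Basal keratinocyte and adhesion genes had 3 of 22 lower and 0 higher.

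The remaining lists held few calls, to be read beside the 2.81% higher and 2.64% lower among all probe sets. Hair follicle keratins and associated proteins had 4 of 39 lower, among them Lgr5, a marker of follicle stem cells, and Krt35, a keratin of the hair shaft. T cell, NK and innate lymphoid markers had 3 of 24 lower, Cd3g, Thy1 and Nkg7, and MHC class II and Langerhans cell genes 1 of 23, Csf2ra, with no rise in either. Thy1 is also counted among the fibroblast markers that fell. Pericyte and smooth muscle markers had 3 of 17 lower, Tagln, Mylk and Higd1b, and the Tagln call was lost in 8 of 20 alternatives, with an adjusted p of up to 0.149, among them without control replicate 3, 4 or 5 or IL-22-Fc replicate 1, 2 or 4. Of 22 matrix metalloproteinases and inhibitors Mmp12, the macrophage elastase, fell (log2 fold change -0.98, SE 0.28, adjusted p = 0.0398), a call lost in 11 of 20 alternatives, with an adjusted p of up to 0.328, among them without control replicate 3, 4 or 5 or any of the IL-22-Fc arrays. Of 26 glycolysis and hypoxia genes 2 rose, Pfkfb4 and Egln3 (median 0.25). The Egln3 call was lost in 9 of 20 alternatives, with an adjusted p of up to 0.0752, among them without control replicate 2, 3 or 4 or IL-22-Fc replicate 2, 4 or 5. Of 28 integrated stress response genes 4 rose, Trib3, Phgdh, Slc7a11 and Cth. Of 30 interferon-stimulated genes 1 rose, Ifih1, a sensor of viral RNA. None of 13 sebaceous gland markers passed in limma (2 higher and 2 lower at an unadjusted p under 0.05), with a median of -0.01.

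At 24 h, 5 IL-22-Fc arrays were set against 4 control arrays of that time, and few genes were called. The fit held all 19 arrays of 24 h, so VEGF and PDGF wounds enter its spread. Some large changes did not pass, such as Spink12 at 1.98 (SE 0.54) and Fetub at 1.39 (SE 0.40, adjusted p = 0.41 and 0.438 from limma). At 24 h 13 probe sets were higher (0.0629%) and 7 lower (0.0339%) at 1.5-fold, and at the adjusted p alone 15 (0.0726%) and 8 (0.0387%). Of the 13, 9 were higher at day 7 as well (69.2% of the 24 h calls and 2.91% of the day 7 calls), and of the 7, 5 were lower (71.4% and 3.01%). The effects at 24 h and at day 7 share no arrays. Alox8 had 6.80 to 9.02 with IL-22-Fc and 4.00 to 4.69 in the control at 24 h, a change of 3.85 (SE 0.40, adjusted p = 5.79e-05), and its effect was 2.68 larger at day 7 (adjusted p = 0.00832). Chil1, a chitinase-like protein, went up by 2.07 at 24 h and 3.88 at day 7, and Prss27 by 1.32 and 3.22. Lor had fallen to 11.91 to 12.55 with IL-22-Fc by 24 h, against 12.96 to 13.41 in the control (change -1.06, adjusted p = 0.000251), and Lce1m by 1.43 on the log2 scale. For Serpina12 the effect was -2.26 at 24 h and -2.96 at day 7, and the difference did not pass (adjusted p = 0.342). Atl1, atlastin 1, a GTPase that shapes the endoplasmic reticulum, rose by 2.06 at 24 h and 1.84 at day 7, and Gng4, a G protein gamma subunit, changed by -1.23 and -0.90.

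The effects at 24 h and at day 7 were then compared directly. In that test 130 probe sets had a higher effect at day 7 than at 24 h (0.629%) and 166 a lower one (0.803%). The count of lower effects ran from 67 without control replicate 2 of 24 h to 285 without IL-22-Fc replicate 5 of 24 h. Lpo had 4.16 to 4.54 with IL-22-Fc and 3.98 to 4.25 in the control at 24 h, so that its effect was 3.42 larger at day 7 (SE 0.21, adjusted p = 1.6e-13). Defb3, Saa1 and Serpinb3a differed by 4.27, 3.42 and 2.72 between the times (adjusted p = 0.0108, 0.00805 and 2.79e-05). Among falling genes, the effect on Mt4 was lower by 3.81 and that on Krt77 by 3.51 at day 7. Dppa5a, a gene known from pluripotent cells, had the larger effect at the earlier time, 2.13 at 24 h and 1.11 at day 7 (adjusted p of the difference 0.0479).

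Slurp1 and Adh6a were the probe sets called higher at 24 h and lower at day 7. Slurp1, a secreted Ly6 protein whose loss causes palmoplantar keratoderma in humans, had 9.47 to 10.17 with IL-22-Fc and 8.80 to 9.20 in the control at 24 h. At day 7 it was at 8.36, 7.56, 7.99, 7.68 and 7.42 with IL-22-Fc, against 8.51, 8.62, 8.53, 8.82 and 8.57 in the control. Its effects of 0.91 and -0.81 differed by -1.72 (adjusted p = 3.06e-06). Adh6a, an alcohol dehydrogenase, was at 7.44, 8.31, 8.73, 8.19 and 7.96 with IL-22-Fc, against 9.32, 9.61, 9.16, 9.57 and 8.97 in the control at day 7, with effects of 0.91 at 24 h and -1.20 at day 7 (difference -2.11, adjusted p = 1.79e-06).

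**Figure D5:**
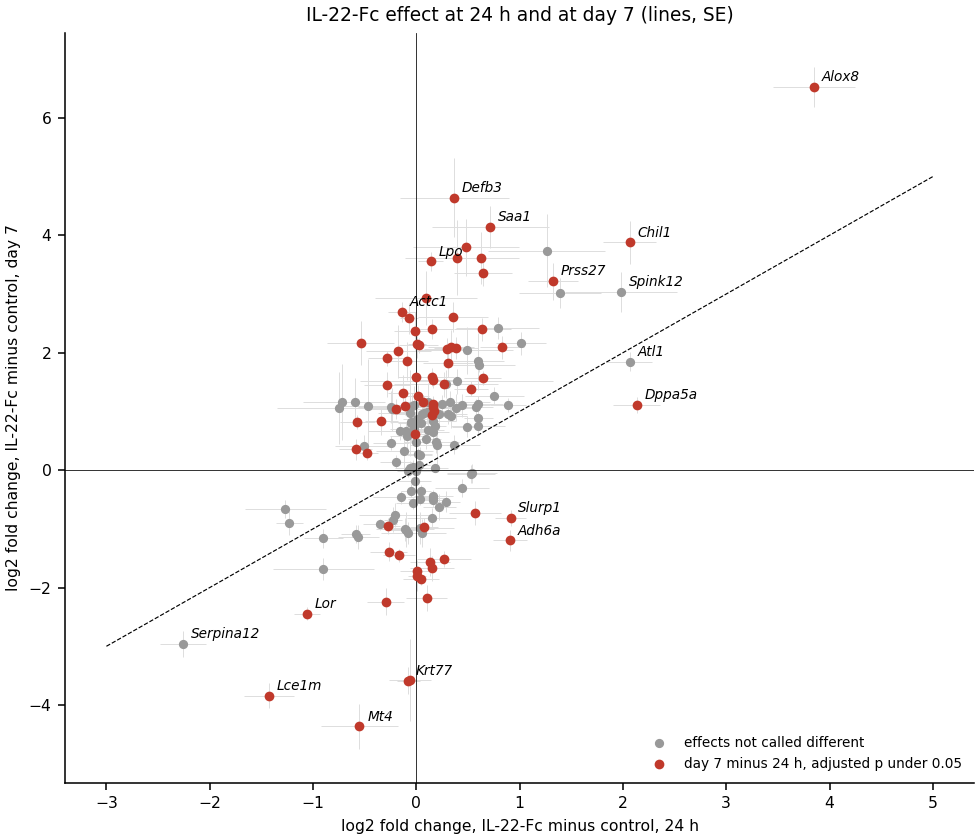
IL-22-Fc effect (log2 fold change against the control of the same time; lines, SE) at 24 h on the horizontal axis and at day 7 on the vertical axis for the genes chosen by the naming rule or for the text, red where the difference of the effects passed an adjusted p of 0.05, with a dashed line at equal effects. Most genes lie near 0 at 24 h, Alox8 (3.85 and 6.53) and Lor (-1.06 and -2.44) moved at both times, and Slurp1 and Adh6a lie on the right below 0.

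Finally, the day 7 values were set directly against VEGF and PDGF, whose own changes from the same controls are given beside them. Defb3 was at 9.11, 4.98, 4.17, 5.88 and 4.63 with VEGF and 8.44, 8.37 and 8.94 with PDGF. IL-22-Fc exceeded VEGF by 5.29 and PDGF by 2.46 (adjusted p = 5.26e-06 and 0.0159). Ehf was 2.25 above VEGF and 2.19 above PDGF, and Lpo 3.41 and 3.19. Lor was lower by 1.74 than with VEGF and by 2.57 than with PDGF (adjusted p = 1.4e-09 and 1.69e-11).

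For Sprr2f, Pla2g4d and Stat3 the difference from PDGF did not pass. Sprr2f was at 11.51, 11.69 and 11.55 with PDGF, and IL-22-Fc differed from it by -0.33 (adjusted p = 0.769), while VEGF arrays, at 10.02, 6.86, 4.64, 6.43 and 6.05, were 4.46 below IL-22-Fc. Pla2g4d changed by 2.40 with IL-22-Fc, -0.07 with VEGF and 2.06 with PDGF, and the difference from PDGF was 0.34 (adjusted p = 0.204). Stat3 differed from PDGF by -0.15 and from VEGF by 0.62 (adjusted p = 0.329 and 7.19e-05). Cth changed by 0.96 with IL-22-Fc and 2.63 with PDGF relative to the control, a difference of -1.67 (adjusted p = 9.74e-07). The PDGF arrays are those with the low 5′ Gapdh level, whose part in these differences was not tested. Late envelope genes were below PDGF in 13 of 27 with IL-22-Fc, beside 21.1% of all probe sets. Against VEGF the list was split. IL-22-Fc was above VEGF in 10, beside 12.1% of all, and below it for others. Besides Lor, these include Flg by -1.219, Lce1m by -2.818 and Mt4 by -3.835 (adjusted p = 5.68e-05, 4.03e-09 and 2.09e-07 from limma).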

How the data were processed

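Skin around wounds of db/db mice was profiled by the study on Affymetrix Mouse430V2 arrays. The authors normalized the arrays by RMA and kept for each Entrez gene its most variable probe set. The deposited values are linear intensity values per probe set (3.85 to 23537 over 20672 probe sets and 42 arrays). They are modelled estimates, so low levels are compressed towards background. Versions of the upstream tools were not given in the sources used here.

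Here log2 of the deposited values was taken, and limma (3.58.1, R 4.3.3, data.table version 1.17.8) was fitted to all 18 day 7 arrays with 1 term per treatment (IL-22-Fc 5, VEGF 5, PDGF 3, control 5), with eBayes and Benjamini-Hochberg adjustment over all probe sets. A fit of the same kind to all 19 arrays of 24 h, VEGF and PDGF wounds included, gave the effects at 24 h. The 37 arrays treated for 24 h or 7 days gave the difference of effects between times. Calls required a fold of 1.5 and an adjusted p below 0.05. Single values of arrays were compared by the two-sided exact permutation test. Gene symbols came from the platform annotation (17928 probe sets with 1 symbol, 79 with several, 2665 with none), and promoter sequences from RefSeq. Summaries and plots were made with Python 3.11.15, pandas 2.3.3, numpy 2.4.6 and matplotlib 3.10.9. The fit was tested on simulated data.

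Genes were named by a rule: the 25 higher and 15 lower called genes with the largest change, up to 6 passing and 4 not passing members of each gene list, and 6 per direction with a difference between times. The 11 genes Klf4, Slc5a1, Atp13a5, Tnnt1, Bex1, Myog, Myf5, Mymk, Dppa5a, Atl1 and Gng4, and members given only as names of a list, were chosen after their values were seen. The arrays and gene lists were chosen with earlier results of these data known, and the lists of muscle and transporter genes after the values were seen. Alternatives were other sets of arrays, a filter on dim probe sets, quantile normalization, median centring, a variance trend, array weights, the 5′ control probe level as a covariate, other fold thresholds and leaving out each array. An item withheld from this text is not reported here.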

Additional observations from a re-analysis of the deposited data

Results flagged for a closer look

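Of 336 groups of 5 arrays, 1 for each gene chosen by the naming rule or for the text and each treatment, 23 (6.8%) had an array far from the other 4 by Dixon's test, which chance gives in about 5% of groups. Control replicate 5 was that array 10 times. It was low for Lcn2 8.00, S100a9 12.29, S100a8 12.97, Lce3a 7.54, Cers3 8.33, Atp13a5 3.20 and Cpa3 10.39 on the log2 scale, and high for Mpo 5.44, Myf5 3.56 and Mymk 6.06. IL-22-Fc replicate 1 stood apart 8 times, low for Fetub 9.37, Krt15 9.35, Bbox1 4.99 and Atl1 6.15 and high for Il1a 7.08, Hbegf 9.39, Mymk 7.64 and Acta1 13.08. IL-22-Fc replicate 2 was high for Saa2 5.61, replicate 3 high for Retn 7.59, and replicate 4 high for Flg 10.11 and low for Alox12e 6.08 and Elf5 5.84.

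For 70 of these 168 genes the IL-22-Fc effect differed between day 7 and 24 h in limma (adjusted p under 0.05 for the difference of the effects). Of the 70, 49 had the higher effect at day 7. Over all 20672 probe sets, 157 had a higher and 193 a lower effect at day 7 at that threshold. The naming rule took genes by their day 7 change and by this difference, so the 70 do not measure how common a difference is. The values are the day 7 log2 fold change minus that at 24 h. Among antimicrobial, acute-phase and immune genes the differences were Defb3 4.27, Lpo 3.42, Saa1 3.42, Defb4 2.70, Lcn2 1.95, Chil1 1.81, Cxcr2 1.74, Stfa2l1 1.59, S100a9 1.45, Il18rap 1.39, Pglyrp1 0.94, Defb1 0.84, Il22ra1 0.76 and Junb 1.17. Among envelope genes and keratins that rose they were Sprr2f 3.23, Sprr2j-ps 2.99, Lce3a 2.84, Psors1c2 1.76, Tgm3 1.70 and Krt17 0.78. Proteases and inhibitors gave Serpinb3a 2.72, Tmprss11a 2.14, Prss27 1.89, Serpina9 1.76, Tmprss11g 1.52, Klk9 1.43, Klk12 1.21, Prss22 1.19 and Serpinb11 0.96, and lipid and retinoid genes Alox8 2.68, Pla2g4d 2.25, Pla2g4e 1.37, Rbp2 0.92 and Rdh16 0.86. The transcription factors Ehf and Ovol1 gave Ehf 0.92 and Ovol1 0.64, and transporters and urate oxidase Uox 3.31, Slc26a4 2.25, Slc7a11 2.20, Atp13a5 1.75 and Slc5a1 1.26. Muscle genes gave Actc1 2.82, Mymx 2.66, Atp1b4 2.38, Tnnt1 2.19, Myh3 2.10, Mymk 1.25, Myog 1.24 and Myf5 1.09.

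The difference was negative for 21 genes. Envelope genes and keratins were Mt4 -3.81, Krt77 -3.51, Krt2 -3.51, Lce1m -2.41, Dapl1 -2.28, Ivl -1.94, Krt15 -1.73, Lor -1.39 and Krt78 -1.29. The other genes were Adh6a -2.11, Tesc -1.90, Paqr7 -1.82, Akr1d1 -1.81, Slc26a7 -1.78, Slurp1 -1.72, Bbox1 -1.70, Clec3b -1.29, Gm94 -1.12, Retn -1.04, Dppa5a -1.03 and Cgn -0.68. Of these, Dppa5a had risen at both times. The values of Krt2, Tmprss11a, Slc26a7, Akr1d1 and Myf5 rest on a group mean within the background range and are not exact.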

How the results depend on the processing

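Of the 132 genes chosen by the naming rule or for the text that passed an adjusted p of 0.05, 107 passed under every alternative fit that held them. There were 20 such fits, and the filter on dim probe sets left some genes out of 1. Retnla missed the threshold in 16 (adjusted p up to 0.138). The count of genes higher at day 7 was 127 at 2-fold and 581 with no fold threshold, and the count lower 38 and 546. Leaving out 1 array gave 258 (without control replicate 5) to 327 higher and 133 to 192 lower, and the other fits stayed within 1.5 times of 309 and 166. Genes with a higher effect at day 7 than at 24 h numbered 76 at 2-fold and 89 to 167 on leaving out 1 array. Genes with a lower effect numbered 53 at 2-fold, 103 with the 19 IL-22-Fc and control arrays alone, and 67 to 285 on leaving out 1 array. For the lower effects the count was 74, 103 and 285 without IL-22-Fc replicates 2, 3 and 5 of 24 h, 83 and 67 without control replicates 1 and 2 of 24 h, 98 without control replicate 4 of day 7 and 103 without IL-22-Fc replicate 1 of day 7. The cause was not tested.

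The sign of the log2 fold change turned only for genes that did not pass. On leaving out 1 array Krt1 ranged over -0.004 to 0.0693, with the negative value without control replicate 5, and Klf4 over -0.017 to 0.148, likewise. Acta1 ranged over -0.0589 to 0.082, negative without control replicate 1 or IL-22-Fc replicate 1. Pecam1 ranged over -0.0672 to 0.0525, positive without control replicate 5 or IL-22-Fc replicate 2, 3 or 5. Mki67 ranged over -0.0756 to 0.0764, positive without control replicate 1, 2 or 4 or IL-22-Fc replicate 2, and was 0.0111 with array weights and 0.0163 with the 5′ probe level as a covariate. Leaving out VEGF replicate 1 was chosen after seeing the data. No paired analysis was possible because the labels give the arrays no replicate numbers that pair mice across groups. Array signal near background limits the fold changes of Saa2, Krt2, Tmprss11a, Slc26a7, Akr1d1 and Myf5. It limits in part those of genes with some arrays in the background range, among them Defb4, Alox8, Slc26a4, Pla2g4d, Mymx, Atp13a5 and Cdkn2a. The number of arrays limits the precision of all.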
